A study of Homo sapiens with 14 samples.

Results

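The mitochondrial chromosome carries 37 annotated genes, and all 37 were present, under symbols starting MT-, among the 62757 genes of each deposited count table. They were taken whole, with no gene left out, and fall into 13 protein-coding genes, 2 ribosomal RNA (rRNA) genes and 22 transfer RNA (tRNA) genes. The series set OVCAR3 and A2780, both human ovarian cancer cell lines, in cisplatin-resistant form beside their parental form, with RNA editing by ADAR1, an enzyme that deaminates adenosines of double-stranded RNA to inosine, as its subject. Its 14 libraries of Trizol-extracted total RNA form 7 groups of 2. The resistant derivatives are labelled OVCAR3-DDP and A2780-DDP and the parental lines OVCAR3-WT and A2780-WT. The other 3 groups are OVCAR3-DDP cells with a short hairpin RNA, either sh2 or sh1 against ADAR1 or the control hairpin shNC, so that all 3 share both the resistant background and a hairpin construct. No drug dose, passage, clone, hairpin sequence or vector is given in the sources used here, and whether the 2 libraries of a group came from separate cultures is not stated there. All p-values below therefore rest on the scatter of these libraries alone, which may be technical.

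As background, the mitochondrial genome encodes subunits of 4 complexes of oxidative phosphorylation and the 2 rRNAs and 22 tRNAs of the organelle's own translation system. Each strand is transcribed into long precursors that span many genes and are cut mostly at the tRNAs, and MT-ND6 is the only protein-coding gene read from its strand. Since 1 precursor feeds many genes, differences between them in the steady state can involve termination, processing and decay, which depend on proteins made from nuclear genes such as POLRMT, TFAM and LRPPRC.

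Of the 13 coding genes, 12 lie on the plus strand and 1, MT-ND6, on the minus strand of GRCh38 chrM. Both rRNA genes stand near the start of the map, MT-RNR1 at chrM:648-1601 and MT-RNR2 at chrM:1671-3229, ahead of all coding genes. Between the pairs MT-ATP8 and MT-ATP6, and MT-ND4L and MT-ND4, the reading frames share bases. This may bear on the counts below, since a read inside a shared stretch belongs to both genes and may be assigned to neither. The last or first 100 bases of each gene at these junctions follow from GENCODE 29, plus strand, with the shared bases in capitals, namely 46 bases for the ATP pair and 7 for the ND4 pair. The windows are chrM:8473-8572, chrM:8527-8626, chrM:10667-10766 and chrM:10760-10859, in the order printed, and all are reference sequence rather than sequence read from these lines.
MT-ATP8: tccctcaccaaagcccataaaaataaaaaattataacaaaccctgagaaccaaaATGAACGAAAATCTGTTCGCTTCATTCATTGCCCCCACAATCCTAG
MT-ATP6: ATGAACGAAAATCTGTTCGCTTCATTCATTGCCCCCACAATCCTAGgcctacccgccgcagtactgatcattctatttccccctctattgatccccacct
MT-ND4L: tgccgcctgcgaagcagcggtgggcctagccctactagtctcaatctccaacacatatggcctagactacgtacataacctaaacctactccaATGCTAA
MT-ND4: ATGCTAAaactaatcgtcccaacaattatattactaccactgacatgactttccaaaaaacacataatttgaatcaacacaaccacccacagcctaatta
MT-ATP8 is 207 bases long, so 46 of them are a large part of the gene. It had the lowest level per kilobase of the 13 coding genes in all 7 groups. MT-ATP6 counts were 75.8 to 299 times MT-ATP8 counts over the libraries. The part of the shared bases in this was not tested.

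Counts assigned to genes ranged from 20428538 to 49115255 per library, with no hairpin library above 23746370 and no other library below 31195174. Levels are given below as counts per 1000000 counts assigned to genes (CPM). Log2 fold changes and adjusted p-values come from edgeR's quasi-likelihood test with trimmed mean of M-values (TMM) scaling and Benjamini-Hochberg adjustment over all genes tested, with a call at an adjusted p under 0.05. ADAR, the gene of ADAR1, had 116 and 114 CPM in sh2 libraries and 289 and 254 CPM in sh1 libraries, against 447 and 399 CPM in shNC libraries. It was lower with both hairpins, at a log2 fold change of -1.99 ± 0.11 (SE) for sh2 and -0.71 ± 0.11 for sh1. In the libraries labelled OVCAR3-DDP, 4 surface and epithelial genes that mark parental OVCAR3 were near or at 0. KRT7, an epithelial keratin, averaged 0.246 CPM there and 1006 CPM in shNC, against 1083 CPM in parental OVCAR3. CD44, a hyaluronan receptor, had 0 counts there and averaged 888 CPM in shNC, against 564 CPM in parental OVCAR3. FOLR1, a folate receptor, averaged 0.304 CPM there and 1224 CPM in shNC, against 431 CPM in parental OVCAR3. MSLN, mesothelin, averaged 0.464 CPM there and 349 CPM in shNC, against 249 CPM in parental OVCAR3. These libraries thus go against their label. The group has no other libraries, so its results cannot be given without them, and it is called the libraries labelled OVCAR3-DDP.

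The 13 coding genes together took a much smaller share of assigned counts in the hairpin libraries than elsewhere. The share was 0.777% and 0.726% in sh2, 0.856% and 0.867% in sh1 and 0.947% and 0.925% in shNC libraries. It was 2.42% and 2.43% in the libraries labelled OVCAR3-DDP, against 2.72% and 2.50% in parental OVCAR3. In A2780-DDP it was 2.31% and 2.55%, against 3.40% and 3.51% in parental A2780. Hairpin libraries lay entirely below the others, and within each line the DDP libraries lay below the parental ones, narrowly in OVCAR3 and widely in A2780. In bulk RNA, fewer mitochondrial genomes or cells of a type and less transcript per cell cannot be told apart.

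The 2 rRNA genes were distributed otherwise. Their share was 0.571% and 0.528% in sh2, 0.571% and 0.627% in sh1 and 0.575% and 0.583% in shNC libraries. It was 0.421% and 0.423% in the libraries labelled OVCAR3-DDP, against 0.234% and 0.214% in parental OVCAR3. In A2780-DDP it was 1.08% and 1.07%, against 0.676% and 0.703% in parental A2780. So the rRNA share was higher in DDP than in parental libraries of both lines, by 1.88 times in OVCAR3 and 1.56 times in A2780, while the coding share was lower. The ratio of rRNA to coding counts averaged 0.732 in sh2, 0.695 in sh1 and 0.619 in shNC, 0.174 in the libraries labelled OVCAR3-DDP against 0.0858 in parental OVCAR3, and 0.445 in A2780-DDP against 0.200 in parental A2780. Because the 2 classes moved apart, all mitochondrial genes together came to 2.87% in the libraries labelled OVCAR3-DDP and 2.86% in parental OVCAR3, with overlapping libraries. No test was run on these summed shares. Mitochondrial rRNA is retained or removed according to library selection, which is not given in the sources used here, and its part in the ratio was not tested. Counts on 20 replication-dependent histone genes, whose RNAs lack a poly(A) tail, made up 0.0213% to 0.0296% of counts in hairpin libraries and 0.00170% to 0.0115% in the others. Within the lines they moved in opposite directions, averaging 0.00188% in the libraries labelled OVCAR3-DDP against 0.0114% in parental OVCAR3, and 0.00794% in A2780-DDP against 0.00254% in parental A2780.

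**Figure D1:**
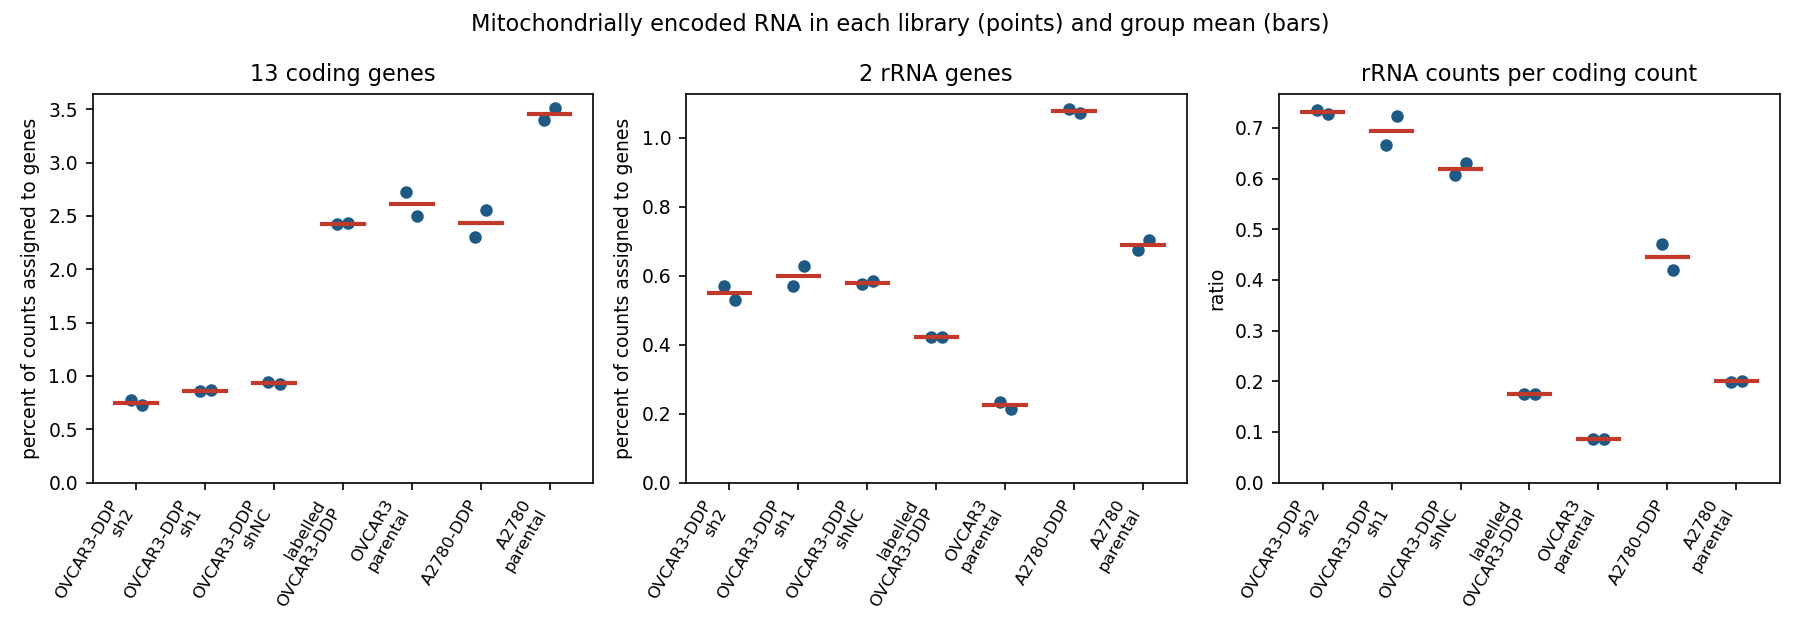
Points are the 2 libraries of each group and bars their mean, for the share of assigned counts on the 13 coding genes (left, percent), on the 2 rRNA genes (middle, percent) and for rRNA counts per coding count (right, ratio). The 6 hairpin libraries have coding shares of 0.726% to 0.947%, below all 8 others, while A2780-DDP has the highest rRNA share at 1.08% and 1.07%.

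Levels per kilobase allow the genes to be ordered within a group. MT-CO1, the catalytic core of cytochrome c oxidase (complex IV), stood first in 6 groups, for example at 4945 CPM per kilobase in the libraries labelled OVCAR3-DDP and 2198 in shNC. The exception was parental OVCAR3, where MT-CO2, the subunit that receives electrons from cytochrome c, had 4687 CPM per kilobase and MT-CO1 had 4522. Other places shifted with the group. MT-ND2, a complex I membrane subunit, ranked 3 and 4 per kilobase in the libraries labelled OVCAR3-DDP and in A2780-DDP but 7 and 8 in the matching parental lines, and 10 or 11 with a hairpin. MT-CYB, the only mitochondrially encoded subunit of complex III, ranked 8 or 9 without a hairpin and 12 in each hairpin group. MT-ND4, another complex I membrane subunit, was second only in the 3 hairpin groups and ranked between 4 and 7 elsewhere.

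The make-up of the coding counts showed the same shifts as percentages. MT-ND4 took 24.7% to 25.7% of coding counts in the hairpin groups and 9.90% to 15.3% in the others. MT-CYB took 1.23% to 1.29% in hairpin groups and 4.18% to 5.66% in the others. MT-ND2 took 11.8% in the libraries labelled OVCAR3-DDP against 6.01% in parental OVCAR3, 11.03% in A2780-DDP against 5.32% in parental A2780, and 2.00% to 2.59% with a hairpin. MT-CO3, a structural core subunit of complex IV, took 6.60% in the libraries labelled OVCAR3-DDP against 12.2% in parental OVCAR3, and 7.64% in A2780-DDP against 12.5% in parental A2780. A ratio inside a library does not depend on scaling: MT-ND2 counts per MT-CYB count averaged 2.82 in the libraries labelled OVCAR3-DDP against 1.06 in parental OVCAR3, and 2.11 in A2780-DDP against 0.943 in parental A2780. Such a ratio shows unequal change and does not say which gene changed.

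**Figure D2:**
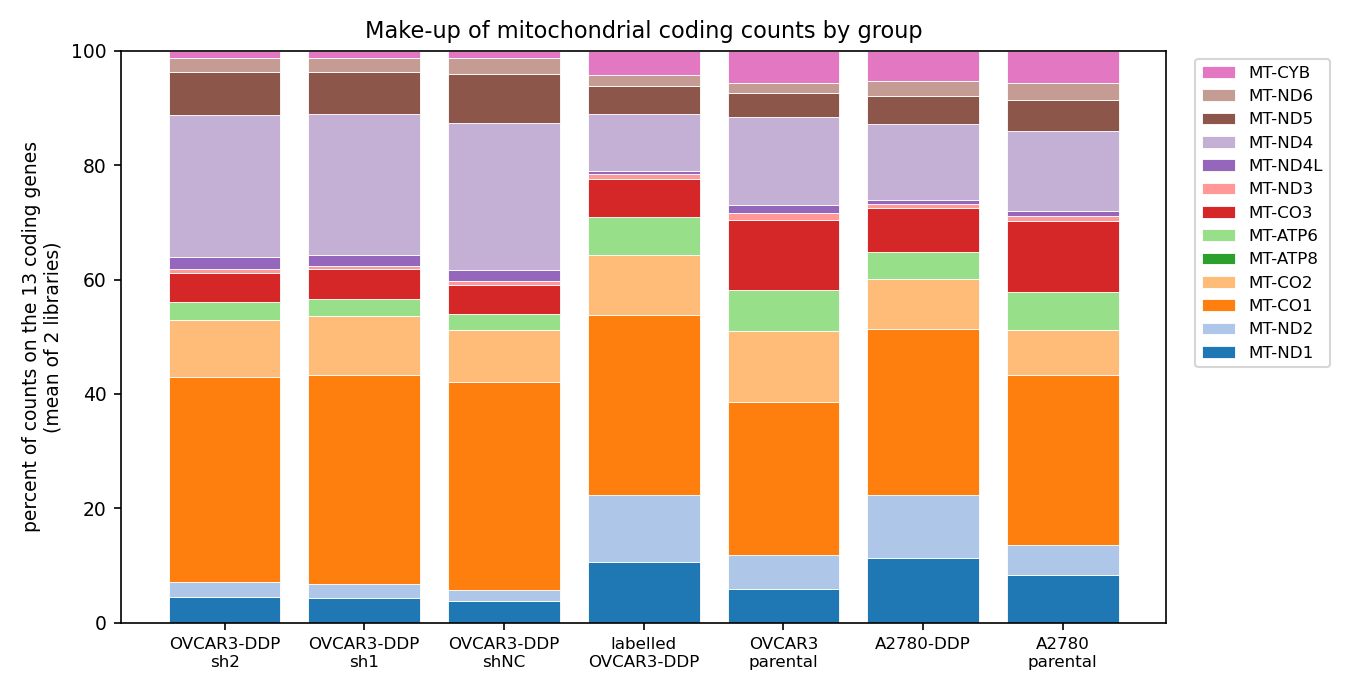
Stacked bars give the percent of coding counts on each of the 13 coding genes per group (mean of 2 libraries), in map order from MT-ND1 at the bottom to MT-CYB at the top. MT-ND2 is wider in both DDP groups (11.8% and 11.03%) than in the parental groups (6.01% and 5.32%), and MT-ND4 fills 24.7% to 25.7% of the hairpin bars.

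The first comparison asks how cells labelled resistant differ from their parent. Both rRNA genes were higher and most coding genes lower in the DDP libraries of both lines, and MT-ND2 was the coding gene that was higher in both. For OVCAR3 these are the libraries labelled OVCAR3-DDP, where KRT7, CD44, FOLR1 and MSLN were near or at 0. In shNC, which has these genes, a resistance label and a hairpin, rRNA genes were also higher than in parental OVCAR3 and most coding genes lower. There MT-ND2 was lower (log2 -2.88), so its rise was not seen in all libraries labelled resistant. In the libraries labelled OVCAR3-DDP against parental OVCAR3, 2 coding genes were called higher and 8 lower; of all 23031 genes tested, 33.4% were called higher and 35.2% lower in that comparison. In A2780-DDP against parental A2780, 1 coding gene was called higher and 11 lower, where 18.0% of all genes were called higher and 17.3% lower. The median log2 fold change of the 13 coding genes was -0.51 in OVCAR3 and -0.61 in A2780, beside -0.03 and 0.00 over all genes tested. In CPM, 10 of 13 coding genes did not overlap between DDP and parental libraries in OVCAR3, where 83.2% of all genes tested did not, in either direction. In A2780 12 of 13 did not, where 65.8% of all genes did not. The 10 include MT-CO1, which was higher in CPM but not called.

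MT-RNR2, the large-subunit rRNA, had 3644 and 3636 CPM in libraries labelled OVCAR3-DDP, against 1988 and 1882 CPM in parental OVCAR3 (log2 0.73 ± 0.08 (SE), edgeR adjusted p = 3.24e-06). In A2780-DDP it had 9712 and 9662 CPM, against 6196 and 6469.5 CPM in parental A2780 (log2 0.62 ± 0.08, edgeR adjusted p = 5.66e-05). MT-RNR1, the small-subunit rRNA, had 568 and 593 CPM in libraries labelled OVCAR3-DDP, against 356 and 257 CPM in parental OVCAR3. The A2780-DDP libraries had 1129 and 1044 CPM, against 558 and 563 CPM in parental A2780. Its log2 was 0.74 ± 0.13 in OVCAR3 and 0.96 ± 0.13 in A2780, and all DDP libraries stood above all parental libraries of their line for both rRNAs.

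Among the 7 complex I genes, which encode the proton-pumping membrane arm of NADH dehydrogenase, MT-ND2, and in OVCAR3 also its map neighbour MT-ND1, were called higher. MT-ND2 had 2863 and 2844 CPM in libraries labelled OVCAR3-DDP, against 1638 and 1498 CPM in parental OVCAR3 (log2 0.69 ± 0.09, edgeR adjusted p = 1.2e-05). In A2780-DDP it had 2548 and 2812 CPM, against 1834 and 1840.0 CPM in parental A2780 (log2 0.55 ± 0.09, edgeR adjusted p = 0.000269). It was higher in both DDP libraries of each line. MT-ND1 had 2565 and 2561 CPM in libraries labelled OVCAR3-DDP, against 1739 and 1359.5 CPM in parental OVCAR3, and was called higher (log2 0.55 ± 0.11). The A2780-DDP libraries had 2670.3 and 2847 CPM, against 2795 and 2967 CPM in parental A2780, libraries that overlapped, and its log2 of -0.05 ± 0.11 was not called.

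The complex I genes farther along the map were lower or not called. MT-ND4 had 2401 and 2400.1 CPM in libraries labelled OVCAR3-DDP, against 4199.6 and 3806 CPM in parental OVCAR3 (log2 -0.92 ± 0.10), and 2891 and 3530.1 CPM in A2780-DDP, against 4706 and 4939 CPM in parental A2780 (log2 -0.58 ± 0.10). MT-ND3, a small membrane subunit, had 198 and 195 CPM in libraries labelled OVCAR3-DDP, against 334 and 356 CPM in parental OVCAR3 (log2 -0.99 ± 0.11), and 155 and 151 CPM in A2780-DDP, against 255 and 318 CPM in parental A2780 (log2 -0.90 ± 0.11). Both genes fell in both lines without overlap. MT-ND4L, which shares its end with MT-ND4, had 145 and 141 CPM in libraries labelled OVCAR3-DDP, against 230.1 and 433 CPM in parental OVCAR3 (log2 -1.39 ± 0.23). In A2780-DDP it had 154 and 228 CPM, against 311 and 318 CPM in parental A2780 (log2 -0.71 ± 0.22), a call that was lost without parental replicate 1 (edgeR adjusted p = 0.0775), parental replicate 2 (0.107) or A2780-DDP replicate 1 (0.241). MT-ND5, the distal proton-pumping subunit, had 1016 and 1415 CPM in A2780-DDP, against 1875 and 1826 CPM in parental A2780 (log2 -0.60 ± 0.13), and 1213 and 1154 CPM in libraries labelled OVCAR3-DDP, against 1002 and 1178 CPM in parental OVCAR3 (log2 -0.06 ± 0.13, not called). MT-ND6 had 634 and 663 CPM in A2780-DDP, against 1005 and 1062 CPM in parental A2780 (log2 -0.66 ± 0.11), and 521 and 466 CPM in libraries labelled OVCAR3-DDP, against 518 and 427 CPM in parental OVCAR3 (log2 -0.12 ± 0.11, not called). Both overlapped in OVCAR3 and not in A2780, and MT-ND6 was called in OVCAR3 at -0.27 without parental replicate 2.

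MT-CYB had 996 and 1030.3 CPM in libraries labelled OVCAR3-DDP, against 1615 and 1349 CPM in parental OVCAR3 (log2 -0.73 ± 0.10, edgeR adjusted p = 3.45e-05). The A2780-DDP libraries had 1194 and 1346 CPM, against 1908 and 1992 CPM in parental A2780 (log2 -0.61 ± 0.10, edgeR adjusted p = 0.000498). All DDP libraries were lower than all parental ones of their line. The 3 complex IV genes changed by different amounts. MT-CO3 had 1579 and 1622 CPM in libraries labelled OVCAR3-DDP, against 3411 and 2981 CPM in parental OVCAR3 (log2 -1.18 ± 0.09, edgeR adjusted p = 1.11e-07), and 1849 and 1853 CPM in A2780-DDP, against 4180.0 and 4430.0 CPM in parental A2780 (log2 -1.21 ± 0.09, edgeR adjusted p = 4.42e-07). MT-CO2 had 2504 and 2579.6 CPM in libraries labelled OVCAR3-DDP, against 3389.5 and 3023 CPM in parental OVCAR3 (log2 -0.51 ± 0.09). In A2780-DDP it had 2155 and 2075 CPM, against 2629.6 and 2745 CPM in parental A2780 (log2 -0.34 ± 0.09), where the call was lost without either parental library (edgeR adjusted p = 0.0662 and 0.187) and without A2780-DDP replicate 2 (0.0974). MT-CO1 had 7585 and 7665 CPM in libraries labelled OVCAR3-DDP, against 7123 and 6822 CPM in parental OVCAR3, yet its log2 was -0.05 ± 0.08, not called. CPM ratios in this comparison stood above the TMM-scaled ones by 0.18 on the log2 scale, so a gene can be higher in CPM and near 0 after scaling. In A2780-DDP, where that gap was -0.01, MT-CO1 had 6678 and 7388 CPM, against 10198 and 10329.7 CPM in parental A2780 (log2 -0.54 ± 0.08).

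The complex V genes, which encode subunits of the membrane part of ATP synthase, were lower in both lines. MT-ATP6 had 1619 and 1633 CPM in libraries labelled OVCAR3-DDP, against 1994 and 1747 CPM in parental OVCAR3 (log2 -0.38 ± 0.09), and 1118 and 1206 CPM in A2780-DDP, against 2256 and 2300.4 CPM in parental A2780 (log2 -0.96 ± 0.09). MT-ATP8 had 3.74 and 6.31 CPM in A2780-DDP, against 16.9 and 17.9 CPM in parental A2780 (log2 -1.79 ± 0.27). In the libraries labelled OVCAR3-DDP it had 12.8 and 11.2 CPM, against 12.8 and 23.0 CPM in parental OVCAR3, and these overlapped. Its log2 of -0.76 ± 0.25 was called but was -0.28 (edgeR adjusted p = 0.236) without parental replicate 2, and the call was also lost without the library labelled OVCAR3-DDP replicate 2 (0.0970).

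**Figure D3:**
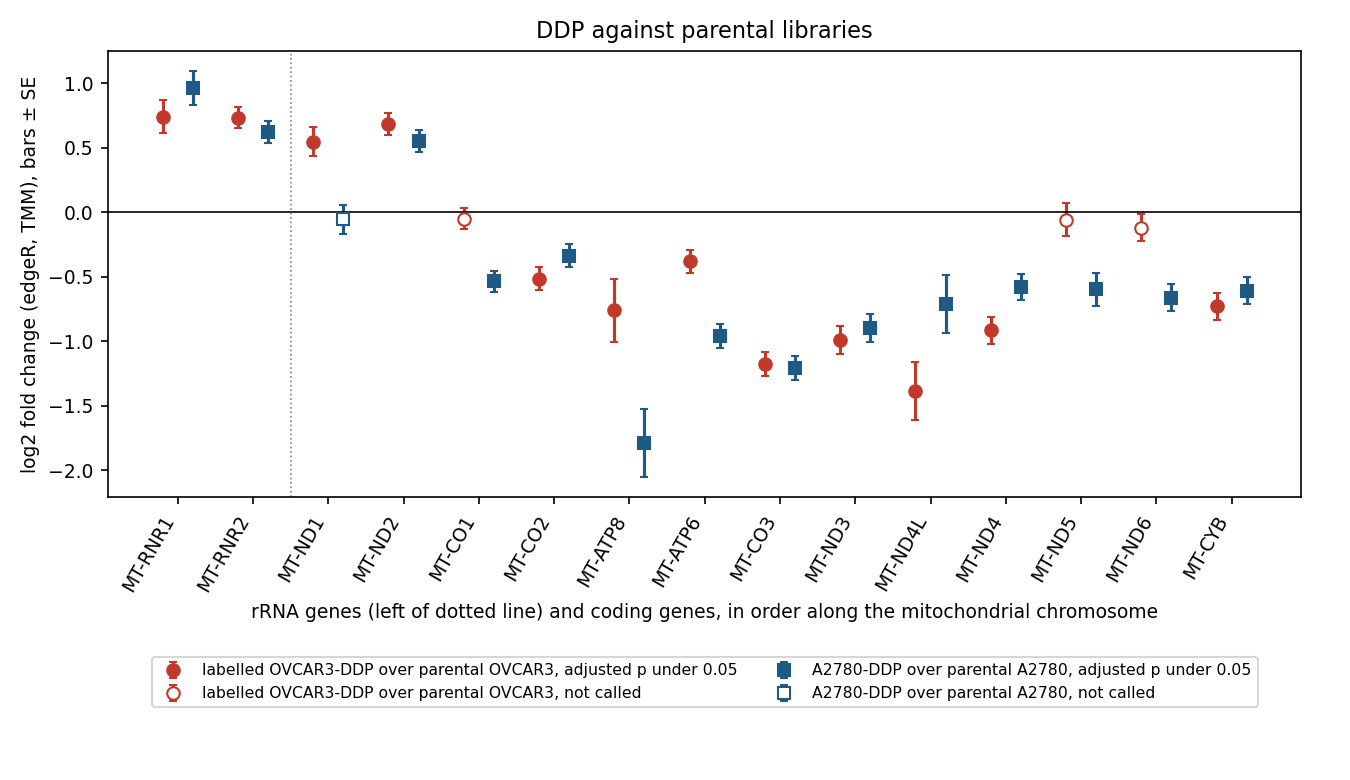
Log2 fold changes (edgeR, TMM; bars are SE) of the 2 rRNA and 13 coding genes in map order, for libraries labelled OVCAR3-DDP over parental OVCAR3 (circles) and A2780-DDP over parental A2780 (squares); filled symbols have an adjusted p under 0.05. The rRNA genes and MT-ND2 lie above 0 in both lines, at 0.55 to 0.96, and MT-CO3 lies at -1.18 and -1.21.

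Of the 13 coding genes, 9 were called in the same direction in both lines. Of all genes tested, 33.4% were called higher and 35.2% lower in OVCAR3, and 18.0% and 17.3% in A2780. The log2 values of the 13 genes in OVCAR3 and A2780, which share no libraries, had a Pearson r of 0.69 and a Spearman rho of 0.69. Neither the count called alike in both lines nor the correlation was computed over all genes. The 13 genes come from shared precursors and are not independent, so these values are a description. Along the 12 plus-strand coding genes, the log2 value fell with distance from the start of the map in OVCAR3 (Pearson r = -0.65) and less so in A2780 (-0.42). The fall was not particular to DDP libraries: r was -0.66 for sh2 and -0.55 for sh1, both over the same shNC libraries. It was -0.02 for sh2 over sh1 and 0.15 for parental OVCAR3 over parental A2780. Position was not the only feature that went with the log2 values of DDP over parental libraries. Over the 13 coding genes, r with gene length was 0.42 in OVCAR3 and 0.43 in A2780 (Spearman rho 0.49 and 0.61). With GC content r was 0.26 and 0.40. For gene length it was -0.24 for sh2 and 0.18 for sh1 over shNC. Which of these features matters was not tested.

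The difference between the lines was tested as an interaction. For 6 coding genes the change was called more positive in OVCAR3 than in A2780 and for 0 it was called more negative. Of all genes tested, 26.9% were called in each direction. The differences were 1.03 ± 0.36 for MT-ATP8, 0.60 ± 0.16 for MT-ND1, 0.58 ± 0.13 for MT-ATP6, 0.54 ± 0.15 for MT-ND6, 0.54 ± 0.18 for MT-ND5 and 0.49 ± 0.12 for MT-CO1, all log2 with SE. The MT-ATP8 difference lost its call without the library labelled OVCAR3-DDP replicate 1 (edgeR adjusted p = 0.0872), A2780-WT replicate 2 (0.0603) or A2780-DDP replicate 1 (0.112), and the MT-ND5 difference lost it without the library labelled OVCAR3-DDP replicate 1 (0.0737). Of the 13 coding genes, 5 pointed the other way and 0 of them were called. MT-ND4L and MT-ND4 lay farthest, at -0.67 ± 0.31 and -0.34 ± 0.14 (edgeR adjusted p = 0.0883 and 0.0643). MT-CO2 was at -0.18, and at -0.27 without OVCAR3-WT replicate 2. MT-ND4L was called more negative without OVCAR3-WT replicate 1 (edgeR adjusted p = 0.000180), without A2780-DDP replicate 1 (0.0362), with no low-count filter (4.95e-05), with a replicate block (0.0420) and with all 14 libraries in 1 fit (0.0445). MT-ND4 was called more negative without OVCAR3-WT replicate 2 (0.00741), without A2780-DDP replicate 1 (0.0142) and with no low-count filter (0.0237). For MT-CO3 the difference was 0.03 ± 0.13 and for MT-ND2 0.13 ± 0.12. Neither rRNA gene was called in the edgeR interaction test, with 0 at an unadjusted p under 0.05 and 0 by DESeq2. The differences were -0.22 ± 0.18 for MT-RNR1 and 0.11 ± 0.12 for MT-RNR2. Without OVCAR3-WT replicate 2 the MT-RNR1 difference was -0.45, so it depended on that library. Under upper-quartile scaling the median log2 of all genes moved by 0.11 in this contrast and by 0.10 in the OVCAR3 comparison. The 4 A2780 libraries were also fitted alone, without any library labelled OVCAR3-DDP. There 1 coding gene was called higher and 11 lower in A2780-DDP, and both rRNA genes were called higher. The share of all genes called in that fit is not given here. In the fit of 8 libraries 18.0% were called higher and 17.3% lower.

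The 2 parental lines differed from each other. Parental OVCAR3 had less mitochondrial rRNA than parental A2780: MT-RNR2 stood at 1988 and 1882 CPM in OVCAR3, against 6196 and 6469.5 CPM in A2780 (log2 -1.66 ± 0.08, edgeR adjusted p = 1.2e-09). MT-RNR1 had a log2 of -0.82 ± 0.13. Of the coding genes 2 were called higher and 7 lower in parental OVCAR3, where 32.3% and 33.7% of all genes were called, and 11 of 13 did not overlap in CPM, where 81.5% of all genes did not. MT-ND6 differed most, at 518 and 427 CPM in OVCAR3, against 1005 and 1062 CPM in A2780 (log2 -1.08 ± 0.11), ahead of MT-ND1 at -0.84 ± 0.11 and MT-ND5 at -0.71 ± 0.13. MT-CO2 (0.30 ± 0.09) and MT-ND3 (0.32 ± 0.11) were the 2 higher genes, and both calls were lost without A2780-WT replicate 1. MT-ATP6, at -0.23 ± 0.09, lost its call in 10 alternatives. MT-CYB, at -0.35 ± 0.10, lost it without OVCAR3-WT replicate 2 or A2780-WT replicate 2.

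Knockdown of ADAR1 was compared with the control hairpin next. Against shNC, 8 coding genes were called lower and 0 higher with sh2, and 2 lower and 0 higher with sh1. Of all 19044 genes tested, 7.23% were called higher and 7.04% lower with sh2, and 1.96% higher and 1.85% lower with sh1. The median log2 of the 13 coding genes was -0.38 with sh2 and -0.19 with sh1, beside 0.00 and 0.02 over all genes tested. These are small changes, none reaching a log2 of -1, and they share the 2 shNC libraries. CPM did not overlap with shNC for 10 of 13 coding genes with sh2 and 9 of 13 with sh1, where 64.5% and 48.7% of all genes tested did not overlap, in either direction.

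MT-ND5 had 564 and 559.9 CPM in sh2 libraries, against 851 and 743 CPM in shNC libraries (log2 -0.61 ± 0.10, edgeR adjusted p = 0.000895). It had 643 and 605 CPM in sh1 libraries, against the same shNC libraries (log2 -0.43 ± 0.10, edgeR adjusted p = 0.021). MT-ND6 had 185 and 195 CPM in sh2 libraries, against 269 and 263 CPM in shNC libraries (log2 -0.59 ± 0.11, edgeR adjusted p = 0.00151). With sh1 it had 211 and 209.8 CPM (log2 -0.41 ± 0.11, edgeR adjusted p = 0.0329). These were the 2 coding genes that edgeR called with each hairpin. With the strand setting not given, MT-ND6 reads cannot be told apart from reads of the opposite strand. MT-ND3 was at the threshold, with 44.2 and 61.9 CPM in sh2 libraries and 53.7 and 48.5 CPM in sh1 libraries, against 63.9 and 69.2 CPM in shNC libraries. Its edgeR adjusted p was 0.0520 with sh2 (log2 -0.43 ± 0.15) and 0.0840 with sh1 (log2 -0.46 ± 0.15), and DESeq2 called it lower with both (adjusted p = 0.0343 and 0.0469). With sh2, edgeR also called it under most other scalings, filters and fits, from DESeq2 size factors (adjusted p = 0.0490) to the compared groups alone (0.00194), but not without either shNC library or without sh2 replicate 1 (0.641). The other genes edgeR called with sh2 were MT-ND4L (log2 -0.50 ± 0.11), MT-ND4 (-0.47 ± 0.09), MT-CO1 (-0.43 ± 0.09), MT-CYB (-0.38 ± 0.12), MT-CO3 (-0.37 ± 0.10) and MT-CO2 (-0.32 ± 0.10). MT-ND4, for example, had 1962 and 1775 CPM in sh2 libraries, against 2437 and 2376 CPM in shNC libraries. The other 5 coding genes had log2 values of -0.05 to -0.43 with sh2 and were not called by edgeR. MT-ND1 and MT-ATP6 were called lower with the sh2 and shNC libraries fitted alone (edgeR adjusted p = 0.0391 and 0.00515). The smallest change was in MT-ND2, at 206 and 183 CPM in sh2 libraries, against 189 and 185 CPM in shNC libraries. No rRNA gene was called by edgeR with either hairpin. At an unadjusted p under 0.05 there was 1 with sh2 and 1 with sh1, and DESeq2 called 0. The larger changes were in different genes and opposite directions. MT-RNR1 had 789 and 742 CPM in sh1 libraries, against 602 and 609 CPM in shNC libraries (log2 0.26, and 0.31 without sh1 replicate 2). MT-RNR2 had a log2 of -0.20 with sh2. It was called lower with the sh2 and shNC libraries fitted alone (edgeR adjusted p = 0.0185).

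These counts rested on few libraries. With sh2, the number of coding genes called was 2 without sh2 replicate 1, 3 without sh2 replicate 2 and 4 without either shNC library, and MT-ND5 was in each of those sets. With sh1 it was 0 without either shNC library, 5 without sh1 replicate 1 and 3 without sh1 replicate 2. Between the 2 hairpins, sh2 against sh1, 0 of 13 coding genes were called by edgeR, with 5 at an unadjusted p under 0.05 and 0 called by DESeq2. Their log2 values lay between -0.29 and 0.26, with 0.667% of all genes called higher and 1.25% lower. In CPM 12 of 13 did not overlap between the hairpins, where 44.3% of all genes did not, and 7 were called without sh1 replicate 2. The effect of sh2 on these genes was therefore not shown to differ from that of sh1. ADAR itself was lower with sh2 than with sh1 (log2 -1.27 ± 0.11). The share of histone counts averaged 0.0273% with sh2 and 0.0270% with sh1, against 0.0222% with shNC, without overlap between each hairpin and shNC; its part in the result was not tested.

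**Figure D4:**
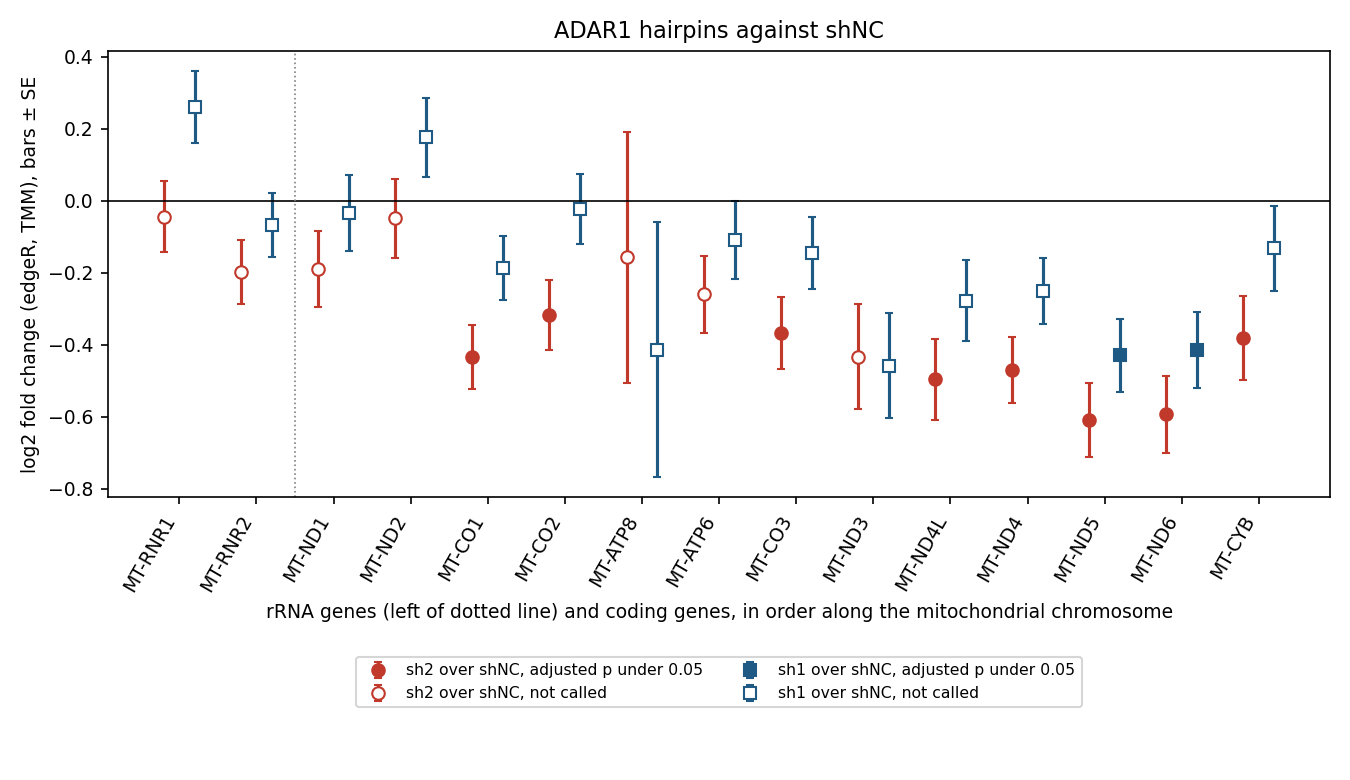
Log2 fold changes (edgeR, TMM; bars are SE) in map order for sh2 over shNC (circles) and sh1 over shNC (squares), both against the same 2 shNC libraries; filled symbols have an adjusted p under 0.05. All 13 coding genes lie below 0 with sh2, deepest at MT-ND5 (-0.61) and MT-ND6 (-0.59), the only filled genes with sh1.

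The widest differences lay between the hairpin control and cells without a hairpin. In shNC against the libraries labelled OVCAR3-DDP, 2 coding genes were called higher and 11 lower, where 32.9% and 36.8% of 24193 genes were called. Against parental OVCAR3, 0 were called higher and 12 lower, where 25.1% and 26.5% were called. Both comparisons use the same shNC libraries. The median log2 of the coding genes was -1.27 against the libraries labelled OVCAR3-DDP, beside -0.06 over all genes, and -1.93 against parental OVCAR3, beside 0.00. In CPM 12 of 13 coding genes did not overlap in the first comparison and 13 of 13 in the second, where 85.8% and 73.4% of all genes tested did not overlap, in either direction. Both rRNA genes were higher in shNC in both comparisons. CPM ratios differed from the TMM-scaled ones by -0.29 against the libraries labelled OVCAR3-DDP and -0.19 against parental OVCAR3, on the log2 scale. A gene near-equal in CPM can thus be called higher after scaling, as MT-ND4 and MT-RNR1 were against the libraries labelled OVCAR3-DDP.

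MT-ND2 had 189 and 185 CPM in shNC libraries, against 2863 and 2844 CPM in libraries labelled OVCAR3-DDP (log2 -3.64 ± 0.10, edgeR adjusted p = 9.38e-20) and 1638 and 1498 CPM in parental OVCAR3 (log2 -2.88 ± 0.10, edgeR adjusted p = 4.51e-17). MT-CYB had 119 and 111 CPM in shNC libraries, against 996 and 1030.3 CPM in libraries labelled OVCAR3-DDP (log2 -2.85 ± 0.11) and 1615 and 1349 CPM in parental OVCAR3 (log2 -3.50 ± 0.12). MT-ND1 had 373 and 342 CPM in shNC libraries, against 2565 and 2561 CPM in libraries labelled OVCAR3-DDP (log2 -2.55 ± 0.11) and 1739 and 1359.5 CPM in parental OVCAR3 (log2 -1.93 ± 0.11). These 3 genes stood far below every library without a hairpin, those of A2780 included. MT-ATP6, with 269 and 251 CPM in shNC libraries, had log2 values of -2.35 ± 0.10 against the libraries labelled OVCAR3-DDP and -2.66 ± 0.10 against parental OVCAR3. MT-ATP8, with 3.50 and 1.44 CPM in shNC libraries, had -1.98 ± 0.31 and -2.67 ± 0.30, and MT-CO3, with 470.1 and 458 CPM, had -1.50 ± 0.10 and -2.60 ± 0.10 in the same 2 comparisons.

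A second set changed far less. MT-ND4 had 2437 and 2376 CPM in shNC libraries, against 2401 and 2400.1 CPM in libraries labelled OVCAR3-DDP, which overlap, and 4199.6 and 3806 CPM in parental OVCAR3 (log2 -0.55 ± 0.10). Its call as higher than in the libraries labelled OVCAR3-DDP (log2 0.29 ± 0.10) held with DESeq2 size factors, upper-quartile scaling and DESeq2, and was lost without the library labelled OVCAR3-DDP replicate 1 (edgeR adjusted p = 0.0663) or replicate 2 (0.0547). MT-ND4L had 192 and 190.2 CPM in shNC libraries, against 145 and 141 CPM in libraries labelled OVCAR3-DDP (log2 0.71 ± 0.18) and 230.1 and 433 CPM in parental OVCAR3 (log2 -0.60 ± 0.18), and the value against parental OVCAR3 was -0.10 and not called without OVCAR3-WT replicate 2. MT-ND5 had 851 and 743 CPM in shNC libraries, against 1213 and 1154 CPM in libraries labelled OVCAR3-DDP (log2 -0.28 ± 0.12) and 1002 and 1178 CPM in parental OVCAR3 (log2 -0.26 ± 0.12, not called). Its call against the libraries labelled OVCAR3-DDP was lost with DESeq2 (adjusted p = 0.0996) and without the library labelled OVCAR3-DDP replicate 1 (edgeR adjusted p = 0.138), the library labelled OVCAR3-DDP replicate 2 (0.0728) or shNC replicate 2 (0.237). MT-ND6 had log2 values of -0.60 ± 0.11 against the libraries labelled OVCAR3-DDP and -0.64 ± 0.11 against parental OVCAR3, and MT-CO1 had -0.88 ± 0.09 and -0.85 ± 0.09 in the same 2 comparisons. MT-CO2 (log2 -1.27 ± 0.10 and -1.71 ± 0.10) and MT-ND3 (-1.27 ± 0.14 and -2.18 ± 0.14) lay between the sets in the same 2 comparisons.

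MT-RNR2 had 5148 and 5221 CPM in shNC libraries, against 3644 and 3636 CPM in libraries labelled OVCAR3-DDP (log2 0.80 ± 0.09) and 1988 and 1882 CPM in parental OVCAR3 (log2 1.61 ± 0.09). MT-RNR1 had 602 and 609 CPM in shNC libraries, against 568 and 593 CPM in libraries labelled OVCAR3-DDP (log2 0.35 ± 0.12), a call lost without the library labelled OVCAR3-DDP replicate 1 (edgeR adjusted p = 0.0913) or shNC replicate 2 (0.061). Against parental OVCAR3, at 356 and 257 CPM, the log2 of MT-RNR1 was 1.17 ± 0.12. Over the 12 plus-strand coding genes, the log2 values had a Pearson r with map position of 0.37 against the libraries labelled OVCAR3-DDP and 0.06 against parental OVCAR3. The hairpin libraries also differed from the others in depth, in reads with multiple alignments (4.64% to 4.99% against 2.36% to 3.22%) and in histone counts. The libraries labelled OVCAR3-DDP also lack the 4 genes named above (median log2 12.3 in shNC against them), and parental OVCAR3 differs from shNC in its resistance label too. The hairpin, the identity of the cells, resistance and any difference in library preparation cannot be told apart.

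**Figure D5:**
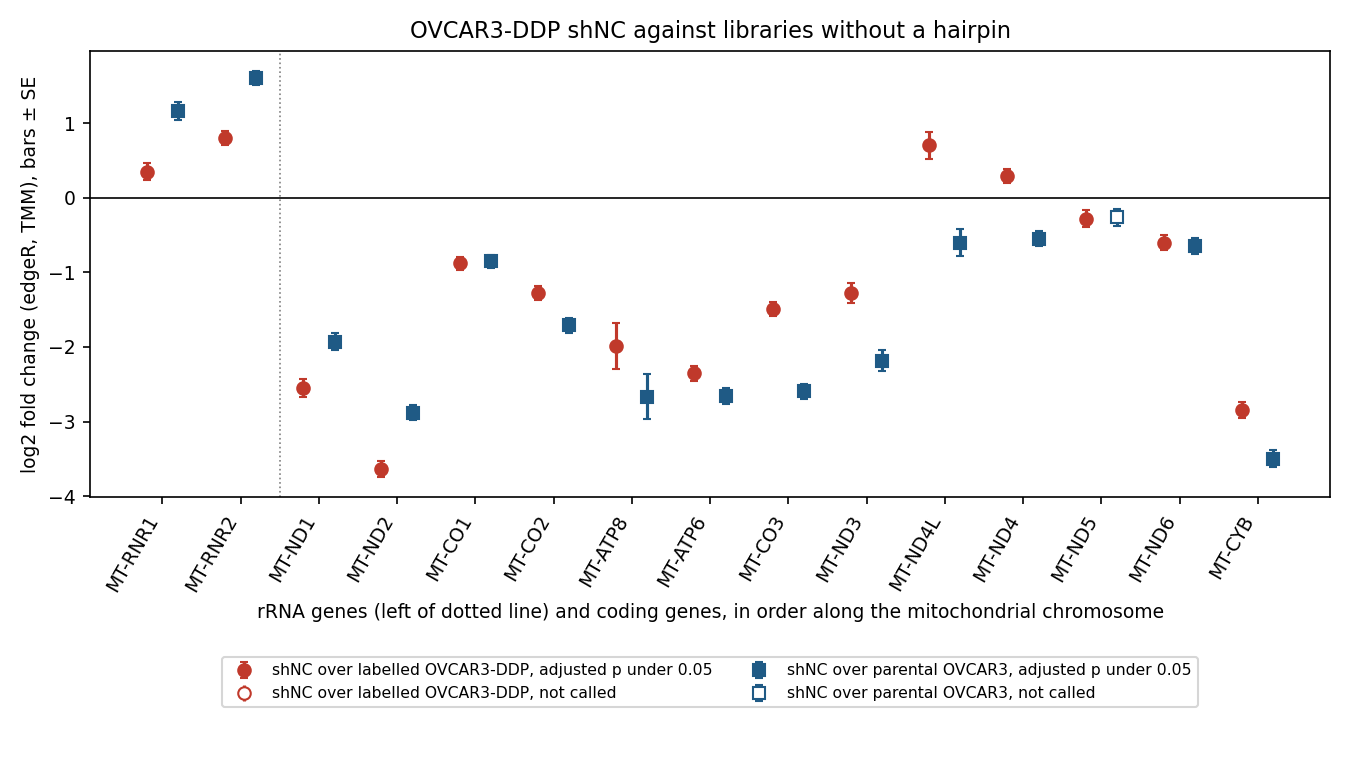
Log2 fold changes (edgeR, TMM; bars are SE) in map order for shNC over the libraries labelled OVCAR3-DDP (circles) and shNC over parental OVCAR3 (squares), sharing the 2 shNC libraries; filled symbols have an adjusted p under 0.05. MT-ND2 (-3.64 and -2.88) and MT-CYB (-2.85 and -3.50) lie lowest, MT-ND4 to MT-ND6 lie within 1 unit of 0, and both rRNA genes lie above 0.

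The 22 tRNA genes gave few counts, with group means of 0.00911% to 0.0345% of assigned counts. In all 14 libraries 5 of them had 0 counts, and 9 had under 10 counts in total. MT-TS1, MT-TY and MT-TP, the tRNAs for serine, tyrosine and proline, held 72.1%, 19.0% and 5.19% of all tRNA counts, and 99.1% of tRNA counts fell on the 8 minus-strand genes. The strand setting of the counting is not given in the sources used here, so reads on minus-strand tRNAs and MT-ND6 cannot be told apart from reads of the opposite strand, and untrimmed precursor cannot be told apart from mature tRNA. In the fits with cells lacking a hairpin 9 tRNA genes were tested. MT-TE and MT-TT, the tRNAs for glutamate and threonine, flank MT-CYB on its 2 sides, and their reference sequences (GRCh38, GENCODE 29; MT-TE on the minus strand, MT-TT on the plus strand) are shown because they had the largest falls of any member in A2780-DDP.
MT-TE: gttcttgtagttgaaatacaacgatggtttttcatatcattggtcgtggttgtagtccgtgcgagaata
MT-TT: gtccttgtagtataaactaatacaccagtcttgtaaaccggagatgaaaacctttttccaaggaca
MT-TE had 0.493 and 0.671 CPM in A2780-DDP, against 7.69 and 8.47 CPM in parental A2780 (log2 -3.78 ± 0.28, edgeR adjusted p = 3.17e-07). MT-TT had 1.01 and 1.16 CPM in A2780-DDP, against 4.42 and 4.80 CPM in parental A2780 (log2 -2.07 ± 0.31, edgeR adjusted p = 0.000186). In OVCAR3 neither was called: MT-TE had 1.79 and 1.89 CPM in libraries labelled OVCAR3-DDP, against 1.70 and 1.81 CPM in parental OVCAR3. Their changes differed between the lines, by 3.67 ± 0.38 and 1.86 ± 0.45. MT-TY had 82.3 and 87.1 CPM in libraries labelled OVCAR3-DDP, against 35.2 and 35.9 CPM in parental OVCAR3 (log2 1.07 ± 0.12), and 45.2 and 59.5 CPM in A2780-DDP, against 54.6 and 51.8 CPM in parental A2780 (log2 -0.02 ± 0.12). MT-TP was lower in both lines (log2 -1.07 ± 0.22 in OVCAR3 and -1.45 ± 0.23 in A2780), and so was MT-TS1 (-0.52 ± 0.15 in OVCAR3 and -0.49 ± 0.15 in A2780), whose call was lost in OVCAR3 without the library labelled OVCAR3-DDP replicate 2 and in A2780 without A2780-WT replicate 2 or either A2780-DDP library. In shNC against the libraries labelled OVCAR3-DDP, 7 of the 9 that passed the filter were called lower and MT-TP higher (log2 0.66 ± 0.21). Of all genes tested there, 36.8% were called lower and 32.9% higher. With sh2 against shNC, MT-TP was 1 of 4 tested and was called lower (log2 -0.70 ± 0.18), where 7.04% of all genes tested were called lower. That call was lost on leaving out any 1 of the 4 libraries.

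Reads of a nuclear copy can be mistaken for mitochondrial RNA. A block on chromosome 1 holds copies of several coding genes with 96.8% to 98.6% identity, 5 to 21 differing bases each. Counts on MTND2P28, the copy of MT-ND2, equalled 4.33% of MT-ND2 counts in A2780-DDP and 5.07% in parental A2780, and 0.270% to 0.440% in the 5 groups labelled OVCAR3. Counts on MTND1P23 equalled 2.67% of MT-ND1 counts in A2780-DDP and 2.15% in parental A2780, and under 0.1% elsewhere. MTATP6P1 counts equalled 3.78% to 8.11% of MT-ATP6 counts over the groups and MTCO1P12 counts 0.542% to 0.845% of MT-CO1 counts, with MTCO2P12 and MTCO3P12 under 0.1%. How the counting split reads between a gene and its copy is not given in the sources used here, and the split of reads between a gene and its copy is uncertain.

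Nuclear genes that serve mitochondrial expression were counted from 5 lists: transcription (10 genes tested), RNA processing and stability (24), translation factors (13), mitochondrial DNA maintenance (10) and biogenesis regulators (7). In the libraries labelled OVCAR3-DDP against parental OVCAR3, the numbers called higher and lower were 2 and 5 for transcription, 3 and 16 for RNA processing, 1 and 7 for translation, 5 and 3 for DNA maintenance and 2 and 2 for biogenesis, where 33.4% of all genes were called higher and 35.2% lower. In A2780-DDP against parental A2780 they were 3 and 1 for transcription, 5 and 3 for RNA processing, 2 and 3 for translation, 5 and 2 for DNA maintenance and 2 and 1 for biogenesis, where 18.0% of all genes were called higher and 17.3% lower. The A2780 totals over the 5 lists, 17 higher and 10 lower of 64, were 9 and 4 without A2780-WT replicate 1, 12 and 5 without A2780-WT replicate 2, and 19 and 5 without A2780-DDP replicate 2. POLRMT, the mitochondrial RNA polymerase, had 316 and 339 CPM in libraries labelled OVCAR3-DDP, against 149 and 131 CPM in parental OVCAR3 (log2 1.05 ± 0.10), and 233 and 236 CPM in A2780-DDP, against 146 and 146 CPM in parental A2780 (log2 0.69 ± 0.09). It was higher in both lines. TFB2M, the initiation factor that melts the promoter, went opposite ways, with a log2 of -1.90 ± 0.13 in OVCAR3 and 0.54 ± 0.13 in A2780, and an interaction of -2.44 ± 0.18. LRPPRC, which stabilises mitochondrial mRNAs, had 194 and 184 CPM in libraries labelled OVCAR3-DDP, against 481 and 440 CPM in parental OVCAR3 (log2 -1.46 ± 0.09). FASTKD3, a mitochondrial RNA-binding protein, had a log2 of -2.34 ± 0.14 in OVCAR3, and MTERF2, a transcription termination factor family member, one of -1.05 ± 0.17 in A2780. PPARGC1A, a coactivator of mitochondrial biogenesis, had 0.0579 and 0.0871 CPM in libraries labelled OVCAR3-DDP, against 16.8 and 22.3 CPM in parental OVCAR3. The other biogenesis gene called lower in that comparison was GABPA (log2 -0.39 ± 0.11). The 2 called higher there were PPARGC1B (log2 1.30 ± 0.20) and YY1 (0.49 ± 0.08), so the list did not move in 1 direction.

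With sh2 against shNC the 5 lists together gave 15 genes called higher and 3 lower of 62 tested, where 7.23% of all genes were called higher and 7.04% lower. The numbers were 2 higher and 0 lower without sh2 replicate 1, 8 and 1 without sh2 replicate 2, 3 and 0 without shNC replicate 1, and 4 and 0 without shNC replicate 2, but 25 and 8 with the sh2 and shNC libraries fitted alone. TRMT10C, a subunit of mitochondrial RNase P, had 26.6 and 24.9 CPM in sh2 libraries, against 14.2 and 11.6 CPM in shNC libraries (log2 0.89 ± 0.17). FASTKD3 had 16.0 and 12.7 CPM in sh2 libraries, against 5.87 and 5.92 CPM in shNC libraries (log2 1.18 ± 0.20). TFAM, which packages mitochondrial DNA and acts in transcription initiation, had 56.9 and 53.5 CPM in sh2 libraries, against 30.6 and 29.8 CPM in shNC libraries (log2 0.76 ± 0.17), while POLRMT was lower at 155 and 175 CPM, against 210 and 211 CPM (log2 -0.46 ± 0.12). With sh1 against shNC edgeR called 0 of the 62, with 19 at an unadjusted p under 0.05 and DESeq2 called 1 higher and 2 lower. Without sh1 replicate 1 edgeR called 15 higher and 7 lower. Between shNC and parental OVCAR3, 2 were called higher and 46 lower of 64, where 25.1% of all genes were called higher and 26.5% lower, and 35 to 46 were called lower over the alternatives with 64 genes tested. Among the lower genes was TFAM at 30.6 and 29.8 CPM in shNC libraries, against 107 and 110 CPM in parental OVCAR3 (log2 -1.65 ± 0.15). Between shNC and the libraries labelled OVCAR3-DDP, 13 were called higher and 33 lower, where 32.9% of all genes were called higher and 36.8% lower, with LRPPRC among the higher genes (log2 0.76 ± 0.11).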

How the data were processed

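RNA-seq counts per gene were measured in 14 libraries of 2 ovarian cancer cell lines, 7 groups of 2. The deposited files hold raw counts per gene, made by the authors with FastQC 0.11.9, STAR 2.7.8a, SAMtools and HTSeq 2.0.3 on GRCh38.p13, per the submitters' processing notes. Not given in the sources used here are the annotation release, counting mode, strand setting, read layout and library selection. Lines that name no gene (5 per file) stayed out of library sizes. Their share of all reads was 48.7% to 50.0% for reads assigned to no gene and 2.09% to 2.48% for ambiguous reads. As the strand setting is not given, the former may include reads from the opposite strand of a gene. Gene positions and sequences came from GENCODE 29 (GRCh38), which holds all 37 members.

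Counts as deposited were tested with edgeR 4.0.16 in R 4.3.3 (quasi-likelihood F-test, TMM, filterByExpr with a minimum count of 10, Benjamini-Hochberg over all genes tested, threshold 0.05), with 1 mean per group and no covariate. The 8 libraries without a hairpin were fitted together (23031 genes, 4 residual degrees of freedom), the 6 hairpin libraries together (19044 genes, 3) and all 14 for shNC against cells without a hairpin (24193 genes, 7). Standard errors are approximate, the log2 fold change over the square root of F. CPM is counts per 1000000 counts assigned to genes. Scripts were tested on simulated data. Alternatives were DESeq2 1.42.0, other scalings and filters, a replicate block, the compared groups alone and leaving out each library. The precision is limited by 2 libraries per group, not by depth, except for MT-ATP8 and the tRNA genes.

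Named are all coding and rRNA members, tRNA members that a fit tested, and from each nuclear list up to 2 called genes of largest positive and 2 of largest negative log2 fold change per comparison; of these a part is printed. Members and lists were chosen with earlier results of these data known. Nuclear copies outside the chromosome 1 block were not used here.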

Additional observations from a re-analysis of the deposited data

Results flagged for a closer look

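The change from parental to DDP cells differed between the 2 lines for 9 members, tested as the OVCAR3 change minus the A2780 change in edgeR's quasi-likelihood test with Benjamini-Hochberg adjustment. The members tested were 13 coding, 2 rRNA and 9 tRNA genes. Of all 23031 genes tested, 26.9% were called more positive and 26.9% more negative in OVCAR3, so such a call was common. The largest differences were in tRNA genes. MT-TE differed by 3.67 (adjusted p = 3.07e-06), MT-TT by 1.86 (adjusted p = 0.00351) and MT-TY by 1.09 (adjusted p = 9.82e-05) on the log2 scale. MT-TE and MT-TT fell in A2780-DDP against parental A2780, and MT-TY rose in the libraries labelled OVCAR3-DDP against parental OVCAR3.

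Coding members made up the other 6. The log2 difference was 1.03 for MT-ATP8, which is counted at under 25 CPM in every library, 0.60 for MT-ND1, 0.58 for MT-ATP6, 0.54 for MT-ND6, 0.54 for MT-ND5 and 0.49 for MT-CO1. In these 9 the change was more positive in OVCAR3. Another 5 coding members pointed the other way and were not called. Of these, MT-ND4L (-0.67, adjusted p = 0.0883) and MT-ND4 (-0.34, adjusted p = 0.0643) lay farthest. MT-ND4L was called more negative in 5 alternatives and MT-ND4 in 3. All these differences rest on the libraries named next. They rest on the libraries labelled OVCAR3-DDP, which lack KRT7, FOLR1, MSLN and CD44; the part of that in the differences was not tested.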

How the results depend on the processing

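Over all alternatives, 1727 of the values recomputed for single coding and rRNA genes kept their call status. Among these, any change of sign between values that were not called was not counted apart. A further 128 lost the call (57 of them under a required fold of at least 2), 46 gained one and 1 changed sign with a call. That one is MT-ND4L in parental OVCAR3 against parental A2780, called lower at -0.39 without OVCAR3-WT replicate 2 and higher at 0.51 without OVCAR3-WT replicate 1; the cause was not tested. TMM without the mitochondrial genes changed 0 of 135 calls. With a required fold of at least 2, called coding genes numbered 2 in the libraries labelled OVCAR3-DDP, 2 in A2780-DDP, 1 in the line difference, 1 between parental lines, 0 with sh1, 0 with sh2 and 8 in shNC against the libraries labelled OVCAR3-DDP, and rRNA genes 0 in the libraries labelled OVCAR3-DDP, 0 in A2780-DDP, 1 between parental lines and 0 in shNC against the libraries labelled OVCAR3-DDP; fewer genes pass by construction. With the compared groups alone, sh1 had 0 coding calls and sh2 1 rRNA call. Leaving out 1 library gave 9 to 10 coding calls in the libraries labelled OVCAR3-DDP, 10 to 11 in A2780-DDP, 4 to 8 in the line difference, 6 to 13 between parental lines, 0 to 5 with sh1, 2 to 4 with sh2, 0 to 7 in sh2 against sh1, 11 to 13 in shNC against the libraries labelled OVCAR3-DDP and 11 to 13 in shNC against parental OVCAR3. For rRNA it gave 0 to 1 in the line difference, with sh1 and in sh2 against sh1, 1 to 2 in shNC against the libraries labelled OVCAR3-DDP, 0 with sh2 and 2 in each other comparison.

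With the replicate block, sh1 had 1 coding call, and no other count of coding or rRNA calls moved by over 1.5 times. Correlations of same-numbered libraries' deviations ran from -0.31 to 0.51 over pairs of groups, so the numbers did not pair the libraries across all groups. The highest, 0.51, was between parental OVCAR3 and A2780-DDP, and what those libraries share was not tested. Taken over all reads instead of assigned counts, coding shares were 0.315% to 0.407% in hairpin libraries and 1.07% to 1.62% in the others. Depth limits MT-ATP8 in hairpin libraries and most tRNA genes.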
